A study of Mus musculus with 12 samples.

Results

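The genotype difference that chow-fed and high fat diet-fed mice had in common was measured in bulk RNA-seq of mouse intestine. All 12 libraries of the study entered one comparison of 6 PparaΔIE libraries with 6 Pparafl/fl libraries, with diet as a covariate. Of 47643 genes in the count table, 17602 had enough counts to be tested, and no gene entered the test by its response. The gene lists used below were drawn up with earlier results of these data known. The mice were male C57BL/6, 7 to 8 weeks old. Each genotype was given either chow or a high fat diet (HFD, labelled 60%) for 10 days, which made 4 groups of 3 libraries. Pparafl/fl mice carry Ppara alleles flanked by loxP sites and are called floxed here. PparaΔIE mice, called ΔIE, carry the same floxed allele, and ΔIE is the usual notation for its loss in the intestinal epithelium. The labels name no intestinal segment, no recombinase line and no deleted exon. They do not say that each library came from a separate mouse, so p-values here reflect only how these libraries vary, and that variation may be technical.

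PPARA is a nuclear receptor whose ligands are fatty acids and molecules made from them. It pairs with a retinoid X receptor on DNA elements made of repeated AGGNCA-like half-sites and switches on genes of fatty acid uptake, of mitochondrial and peroxisomal oxidation and of ketone body formation. In enterocytes, the absorptive cells of the gut lining, it is known as a sensor of dietary fat.

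The libraries held 33621040 to 53959405 counts. The floxed chow libraries stood apart: their variation between replicates was 0.0506 (edgeR's biological coefficient of variation), against 0.131 to 0.138 in the other groups. Over 146 immunoglobulin variable genes, which usually differ between mice, their levels correlated at 0.909 to 0.964 with each other, against 0.702 to 0.911 within the other groups. Of 247 genes at least 2-fold apart between ΔIE chow 1 and 2, 98.8% lay between those libraries in ΔIE chow 3. For floxed chow 1 it was 77.4% of 31 such genes, and for the other libraries 12.3% to 80.5% of 12 to 150 genes. Counts are also given without ΔIE chow 3 and floxed chow 1, although the share for floxed chow 1 lay within the range of the other libraries. Fabp2, the fatty acid binding protein that defines enterocytes, measured 1949 to 6258 CPM over the 12 libraries, where CPM are counts scaled to a library total of 1000000.

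Ppara itself (ENSMUSG00000022383.13, chromosome 15: 85734983 to 85802819, mm10, plus strand) measured 19.2, 18.1 and 22 CPM in floxed chow, against 8.42, 15.6 and 13 CPM in ΔIE chow. On HFD it measured 39.3, 36.6 and 33.7 CPM in the floxed libraries and 11.4, 11.1 and 17.3 CPM in the ΔIE libraries. Every ΔIE library lay below every floxed library of its diet. With diet as a covariate, Ppara was lower in ΔIE by 2.11-fold, a log2 fold change of -1.07 ± 0.19 (SE), with an adjusted p of 0.03 in edgeR's quasi-likelihood test. The difference was -0.68 ± 0.21 on chow and -1.46 ± 0.21 on HFD, and these did not pass a test against each other (interaction adjusted p = 0.74). The call held in 3 of the 12 fits that left out 1 library. Without floxed chow 1 and ΔIE chow 3 the difference was -1.18 with an adjusted p of 0.15. The counts are totals over the whole gene, so a transcript that lacks the deleted exons could still be counted. In whole intestine, fewer cells that express a gene and less of its RNA per cell cannot be told apart, here or for any gene that follows. The other tested receptors of the family did not pass the test: Ppard measured 65.3 to 92.0 CPM in the floxed libraries and 79.9 to 108 CPM in the ΔIE libraries, at 0.22 ± 0.08 and an adjusted p of 0.16. Of 16 tested PPAR, RXR and coactivator genes, Ppara was the only 1 to pass, against 1.44% of all tested genes, and the median of the list was 0.06.

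**Figure D1:**
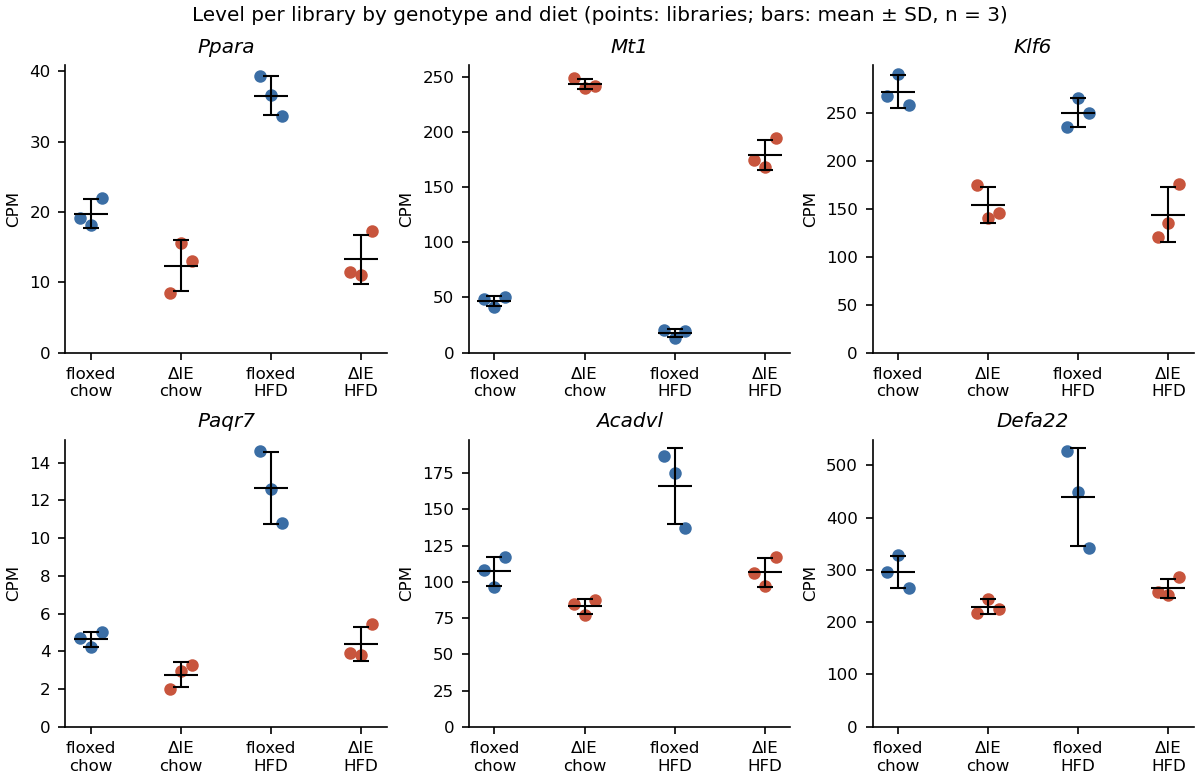
Levels in CPM (y axis, from 0) of 6 genes in each of the 12 libraries, by genotype and diet (x axis); points are libraries, floxed in blue and ΔIE in red, and black bars are the mean ± SD of 3 libraries. In all 6 panels the ΔIE and floxed points of a diet do not overlap; Mt1 is higher in ΔIE (168 to 249 CPM against 13.2 to 50.5 CPM) and the other 5 genes are lower.

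Over all genes, 253 differed between the genotypes at an adjusted p under 0.05, which is 1.44% of those tested. 112 were higher in ΔIE (0.636%) and 141 were lower (0.801%). Most changes were small: the median size was 0.44 on the log2 scale for the higher genes and 0.32 for the lower ones, and 13 genes changed at least 2-fold, 8 up and 5 down. All 253 had the same sign of difference on chow and on HFD, as did 62.8% of all tested genes. Of the 112 higher genes, 90 had every ΔIE library above every floxed library on each diet, and of the 141 lower genes, 125 had every ΔIE library below. Such separation on both diets occurred in 727 of all tested genes (4.13%), with 314 higher (1.78%) and 413 lower (2.35%). Same sign and separation are both favoured by the test that picked the 253 from these same libraries. They therefore add no separate support for a shared difference. A test of whether the genotype difference itself changed with diet passed for 1 gene, the immunoglobulin segment Ighv1-22 (0.00568% of genes), and for none of the 253.

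The size of the count rested on single libraries. Leaving out floxed chow 1, 2 or 3 left 10, 55 or 32 genes, and leaving out ΔIE chow 2 or 3 left 76 or 31. Without ΔIE chow 1 it rose to 1119, and without floxed HFD 3 to 368. It was 92 without floxed HFD 1 and 74 without floxed HFD 2. Without ΔIE HFD 1, 2 or 3 it was 98, 84 or 138. Without both floxed chow 1 and ΔIE chow 3, 3 genes passed: Mt1, Klf6 and Paqr7. In all 12 fits with 1 library left out, 10 genes passed: Mt1, Klf6, Klf7, Paqr7, Mvk, Coq4, Muc3a and the noncoding genes Gm15675, Gm43305 and 4632427E13Rik. Of the 253 genes, 176 passed in 1 to 4 of those fits, so their calls depend on the particular set of libraries.

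**Figure D2:**
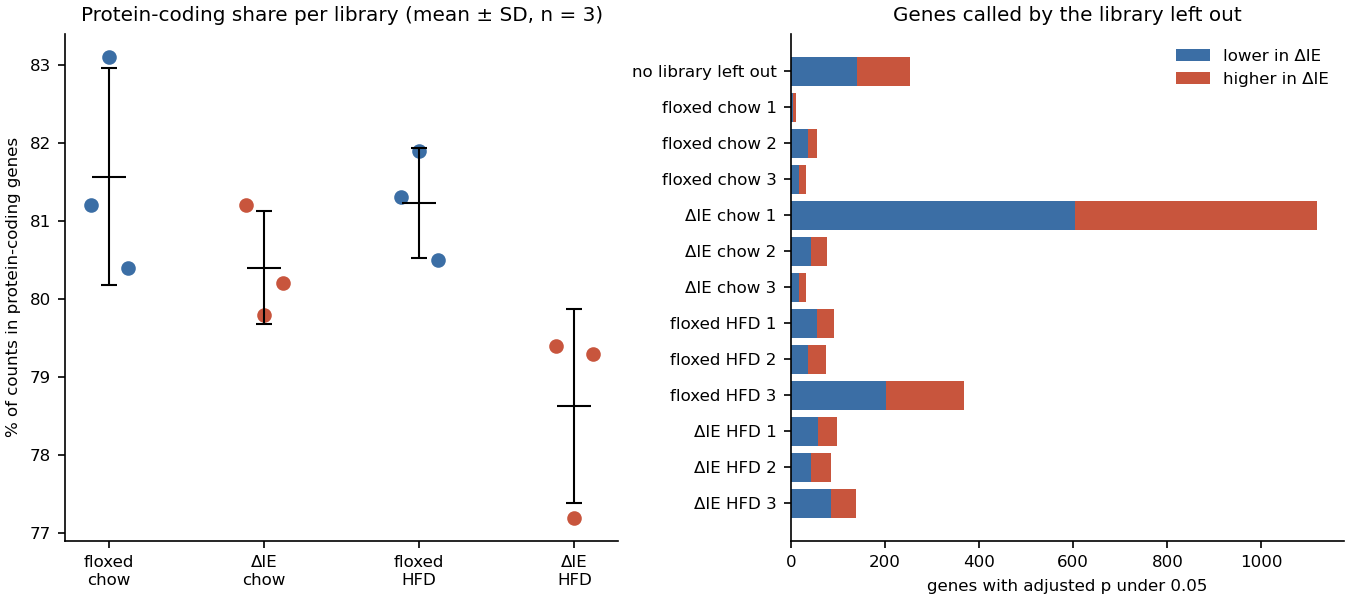
Left: percent of each library's counts that fall in protein-coding genes (y axis, which does not start at 0), points per library with the mean ± SD of 3. Right: number of genes with an adjusted p under 0.05 (x axis) when the library named on the y axis is left out, split into lower (blue) and higher (red) in ΔIE; the bar runs from 10 genes without floxed chow 1 to 1119 without ΔIE chow 1.

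Mt1 showed the clearest difference between the genotypes. It encodes metallothionein 1, a small cysteine-rich protein that binds zinc and copper, and lies at chromosome 8: 94179082 to 94180327 (ENSMUSG00000031765.7, plus strand). It measured 48.3, 41.6 and 50.5 CPM in floxed chow, against 249, 240 and 242 CPM in ΔIE chow. On HFD it measured 20.0, 13.2 and 19.6 CPM in floxed libraries and 175, 168 and 195 CPM in ΔIE libraries. The highest floxed library stayed far below the lowest ΔIE library, across diets as well as within them. The log2 fold change was 2.85 ± 0.19, which is 7.22-fold, with an adjusted p of 2.2e-04, and Mt1 passed the test under each of the 26 alternatives run. It was 2.38 ± 0.13 on chow and 3.35 ± 0.14 on HFD, with an adjusted interaction p of 0.33. Mt2, the neighbouring metallothionein gene that is usually induced along with Mt1, did not follow it. It measured 14.1, 12.3 and 15.4 CPM in floxed chow, 15, 23.2 and 21 CPM in ΔIE chow, 3.16, 1.44 and 1.88 CPM in floxed HFD and 3.06, 2.0 and 3.33 CPM in ΔIE HFD. The genotypes overlapped for Mt2 on each diet, and its difference of 0.45 ± 0.18 did not pass (adjusted p = 0.19).

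The promoters of this gene pair are shown because both are known targets of MTF1, the zinc-sensing factor that binds metal response elements. The sequences are RefSeq's for GRCm38.p6, 250 bases before to 50 after the start, plus strand, at chr8:94178839-94179138 for Mt1 and chr8:94172368-94172667 for Mt2. Capitals mark each match, on either strand, to the metal response core TGCACNC or TGCGCNC.
Mt1: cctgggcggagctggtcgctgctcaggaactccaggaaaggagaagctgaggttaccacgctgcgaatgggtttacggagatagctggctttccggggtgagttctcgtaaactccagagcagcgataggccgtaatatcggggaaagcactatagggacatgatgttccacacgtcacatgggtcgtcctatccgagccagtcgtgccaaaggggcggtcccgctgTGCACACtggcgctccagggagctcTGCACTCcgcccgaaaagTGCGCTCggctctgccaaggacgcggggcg
Mt2: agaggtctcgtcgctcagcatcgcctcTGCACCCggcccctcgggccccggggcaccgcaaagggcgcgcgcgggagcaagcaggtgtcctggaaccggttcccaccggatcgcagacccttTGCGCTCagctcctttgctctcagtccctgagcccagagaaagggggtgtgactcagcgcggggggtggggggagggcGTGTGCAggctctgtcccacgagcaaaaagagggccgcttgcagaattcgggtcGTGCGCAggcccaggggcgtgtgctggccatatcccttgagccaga
The Mt1 window held 3 matches and the Mt2 window 4. The core was present beside both genes, as it was in 34.4% of all promoters of tested genes. Whether zinc or MTF1 had a part in the Mt1 difference was not tested. Mtf1 itself measured 52.9 to 67.2 CPM in floxed and 51.7 to 69.2 CPM in ΔIE libraries, a difference of -0.01 ± 0.06 (adjusted p = 0.93).

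Of 23 tested metallothionein and zinc transport genes, 2 were higher in ΔIE and 1 was lower, against 0.636% and 0.801% of all tested genes. The list median was -0.01, against 0.00 over all tested genes. Slc39a5, a zinc importer of the basolateral membrane, measured 160 to 195 CPM in floxed and 131 to 166 CPM in ΔIE libraries. It was lower in ΔIE on each diet with no overlap, by -0.25 ± 0.05 (adjusted p = 0.025). Slc30a10, a manganese exporter of the zinc transporter family, was higher in ΔIE by 0.46 ± 0.10 (adjusted p = 0.048). Slc30a1, a zinc exporter and another known MTF1 target, gave 0.04 ± 0.07 (adjusted p = 0.8). Neither Slc39a5 nor Slc30a10 passed without floxed chow 1 and ΔIE chow 3 (adjusted p of 0.16 and 0.19).

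Among 15 tested Kruppel-like factors, a family of zinc finger transcription factors, 1 was lower and 1 was higher in ΔIE, against 0.801% and 0.636% of all tested genes, and the list median was 0.03. Klf6 (chromosome 13: 5861482 to 5870394) measured 268, 291 and 258 CPM in floxed chow, against 175, 140 and 146 CPM in ΔIE chow. On HFD it measured 235, 266 and 250 CPM in floxed libraries and 121, 135 and 176 CPM in ΔIE libraries. All 6 ΔIE libraries lay below all 6 floxed libraries, and the drop was alike on the 2 diets, -0.83 ± 0.12 on chow and -0.80 ± 0.12 on HFD. Together the difference was -0.81 ± 0.08 (adjusted p = 5.7e-04). Klf7 (chromosome 1: 64029447 to 64122282) moved the other way, from 9.99 to 12.4 CPM in the floxed libraries to 14.6 to 17.2 CPM in the ΔIE libraries. Its difference was 0.50 ± 0.07 (adjusted p = 0.0061), and the genotypes did not overlap. Klf4 and Klf5, the factors of differentiated and dividing gut epithelium, gave 0.03 ± 0.09 and 0.11 ± 0.06 (adjusted p of 0.88 and 0.32).

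Paqr7, a membrane progesterone receptor (chromosome 4: 134496697 to 134510235), measured 4.68, 4.23 and 5.02 CPM in floxed chow, against 2.0, 2.98 and 3.26 CPM in ΔIE chow. On HFD the floxed libraries held 14.6, 12.6 and 10.8 CPM and the ΔIE libraries 3.92, 3.83 and 5.44 CPM. The ΔIE libraries were the lower ones on each diet. Within each genotype the HFD libraries lay above the chow libraries, and the ΔIE libraries on HFD (3.83 to 5.44 CPM) spanned the floxed chow range, 2 below it and 1 above. The genotype difference was -1.17 ± 0.16 (adjusted p = 0.011), with -0.76 ± 0.19 on chow and -1.53 ± 0.18 on HFD (interaction adjusted p = 0.7). Coq4, a gene of coenzyme Q synthesis, measured 11.1 to 19.7 CPM in floxed and 7.56 to 11.4 CPM in ΔIE libraries, with no overlap on either diet, and differed by -0.63 ± 0.09 (adjusted p = 0.011).

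Mitochondrial fatty acid oxidation was the metabolic list with the most genes lowered. Of its 25 genes, all tested, 6 were lower in ΔIE, against 0.801% of all tested genes, none was higher, and the median was -0.25; 9 (against 2.35%) were lower with no overlap on either diet. The 6 do not cover every step of the pathway. Cpt2 passes acyl groups into the matrix, and Eci2 is an enoyl-CoA isomerase. Acadvl, Acadl and Acads are the very long, long and short chain acyl-CoA dehydrogenases, and Etfb accepts the electrons. Hadha, Hadhb, Hadh and Acaa2, of later steps, did not pass, although Hadh and Acaa2 were among the 9 without overlap. Acadvl (chromosome 11: 70010183 to 70015411) measured 108, 96.5 and 117 CPM in floxed chow, against 84.7, 77.3 and 87.3 CPM in ΔIE chow. On HFD it measured 187, 175 and 137 CPM in floxed libraries and 106, 97.0 and 117 CPM in ΔIE libraries. ΔIE libraries on HFD thus held about as much Acadvl as floxed libraries on chow. The genotype difference was -0.50 ± 0.08 (adjusted p = 0.018). Cpt2 measured 69.8 to 72.3 CPM in floxed chow, 55.5 to 60.8 CPM in ΔIE chow, 106 to 119 CPM in floxed HFD and 73.5 to 101 CPM in ΔIE HFD, a difference of -0.33 ± 0.07 (adjusted p = 0.03). The other 4 genes gave -0.43 (Acadl), -0.41 (Eci2), -0.37 (Acads) and -0.36 (Etfb), with adjusted p from 0.021 to 0.045. None of the 6 passed without floxed chow 1 and ΔIE chow 3. There Acadvl gave -0.55 with an adjusted p of 0.11.

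A list of 50 known PPARA target genes, which shares 5 of these 6 genes, had 44 tested members. Cyp4a10, Cyp4a14, Cyp4a31, Cyp4a32, Fgf21 and Ucp3 had too few counts. In ΔIE, against 0.801% of all tested genes, 5 of the 44 were lower (Acadvl, Eci2, Acads, Cpt2 and Acadl) and none was higher. Fitted differences were negative in 41 of the 44, against 8706 of all 17602 tested genes. The median of the 44 was -0.30, with -0.13 on chow and -0.43 on HFD. Several targets with wide differences, singled out after their values were seen, did not pass the test that both diets share. The liver-type fatty acid binding protein gene Fabp1 gave 0.80 on chow and -2.85 on HFD, and -1.43 ± 0.77 together (adjusted p = 0.35). Pdk4, a kinase that slows glucose oxidation, gave -1.21 ± 0.69 (adjusted p = 0.38), and the peroxisomal thiolase Acaa1b -1.54 ± 0.44 (adjusted p = 0.1). The water and glycerol channel gene Aqp3 gave -1.25 ± 0.34 (adjusted p = 0.086). For Pdk4, Acaa1b and Aqp3 the chow libraries of the genotypes overlapped. Cpt1a, the gate of mitochondrial oxidation, measured 132 to 137 CPM in floxed chow and 89.3 to 123 CPM in ΔIE chow. On HFD the genotypes overlapped for Cpt1a, and with both diets it gave -0.36 ± 0.10 (adjusted p = 0.067).

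**Figure D3:**
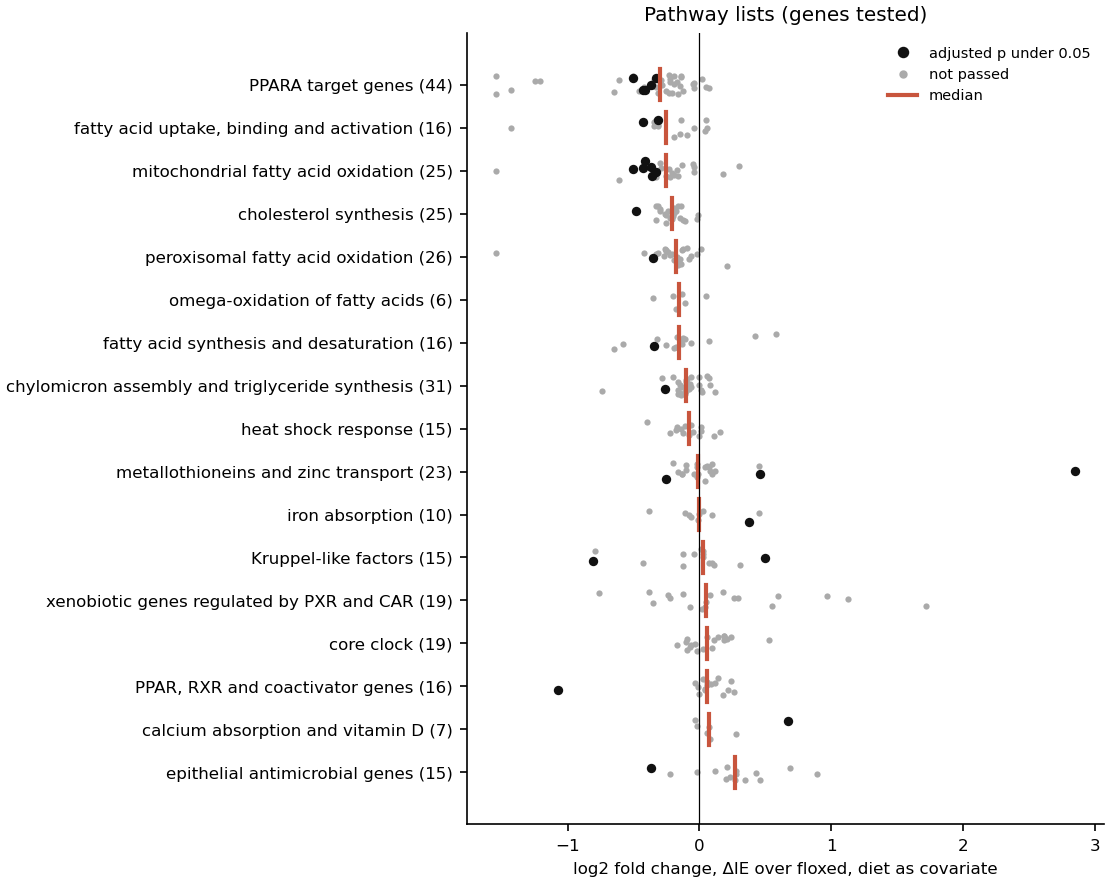
Log2 fold change of ΔIE over floxed with diet as a covariate (x axis) for the tested genes of 17 pathway lists (y axis, number of genes tested in brackets); black points passed an adjusted p of 0.05, grey points did not, and red bars are medians. The PPARA target list has the lowest median (-0.30) and Mt1 lies alone at 2.85 in the metallothionein and zinc list.

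Of 16 tested genes of fatty acid uptake, binding and activation, 2 were lower in ΔIE, against 0.801% of all tested genes, and the median was -0.25. The same share applies to the 2 lists that follow. Slc27a4, the fatty acid transport protein FATP4 of enterocytes, measured 765, 740 and 747 CPM in floxed chow, 642, 496 and 576 CPM in ΔIE chow, 873, 999 and 871 CPM in floxed HFD and 584, 617 and 782 CPM in ΔIE HFD. No ΔIE library reached the floxed libraries of its diet, and the difference was -0.43 ± 0.08 (adjusted p = 0.025). Got2, which encodes the mitochondrial aspartate aminotransferase and was also described as a membrane fatty acid binding protein, was lower by -0.31 ± 0.06 (adjusted p = 0.025). Of 31 genes of chylomicron assembly and triglyceride synthesis, 1 was lower, Mogat2, the monoacylglycerol acyltransferase that rebuilds absorbed fat, at -0.26 ± 0.06 (adjusted p = 0.042). The median of these 31 was -0.10. Of 26 tested peroxisomal oxidation genes 1 was lower, Hacl1 of alpha-oxidation, at -0.35 ± 0.07 (adjusted p = 0.029), with a list median of -0.18. Peci, another symbol on that list, is an older name of Eci2. Under the name Eci2 it was lower, at -0.41 (adjusted p = 0.021), and it is not among the 26. None of the 6 tested genes of omega-oxidation passed. Aldh3a2, a fatty aldehyde dehydrogenase, came closest at -0.35 ± 0.09 (adjusted p = 0.075).

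In cholesterol synthesis, 1 of 25 genes was lower in ΔIE, and in fatty acid synthesis and desaturation 1 of 16, against 0.801% of all tested genes. All 25 cholesterol genes had negative fitted differences, against 8706 of all 17602 tested genes. The cholesterol median was -0.21, with -0.34 on chow and -0.10 on HFD. The lower 1 was Mvk, mevalonate kinase (chromosome 5: 114444269 to 114460591). It measured 51.2, 46.4 and 55.6 CPM in floxed chow, 38.0, 29.2 and 34.3 CPM in ΔIE chow, 33.2, 30.5 and 33.1 CPM in floxed HFD and 25.2, 25.1 and 25.3 CPM in ΔIE HFD. The ΔIE libraries were the lower ones on each diet, with no overlap. The difference was -0.48 ± 0.07 (adjusted p = 0.011). The lower gene of fatty acid synthesis was the desaturase Scd2, at -0.34 ± 0.07 (adjusted p = 0.036), and that list's median was -0.15.

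Mineral and vitamin absorption genes included 2 that were higher in ΔIE, against 0.636% of all tested genes. S100g, calbindin-D9k, the cytosolic calcium carrier of enterocytes (chromosome X: 162961992 to 162964599), measured 6.98, 7.36 and 7.38 CPM in floxed chow, 10.1, 8.88 and 8.63 CPM in ΔIE chow, 4.82, 4.04 and 4.58 CPM in floxed HFD and 9.14, 8.10 and 9.78 CPM in ΔIE HFD. All 6 ΔIE libraries exceeded all 6 floxed libraries. The difference was 0.67 ± 0.11 (adjusted p = 0.018), and S100g was the only 1 of 7 tested calcium and vitamin D genes to pass. Slc46a1, the proton-coupled folate transporter that is also listed for heme, was higher by 0.38 ± 0.08 (adjusted p = 0.031) and was the only 1 of 10 tested iron absorption genes to pass. Without floxed chow 1 and ΔIE chow 3, S100g gave 0.74 with an adjusted p of 0.1 and Slc46a1 0.34 with 0.17.

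Paneth cells, the crypt cells that secrete antimicrobial peptides, had more lowered markers than any other marker list. Of 17 Paneth cell markers, all tested, 7 were lower in ΔIE, against 0.801% of all tested genes, none was higher, and the median was -0.38; every fitted difference was negative. The 7 were Lyz1, which encodes lysozyme, the alpha-defensin genes Defa5, Defa21, Defa22, Defa24 and Defa26, and the lectin gene Itln1. Lyz1 (chromosome 10: 117287797 to 117292868) measured 1405, 1540 and 1302 CPM in floxed chow, against 1122, 1177 and 1108 CPM in ΔIE chow. On HFD it measured 1860, 1723 and 1281 CPM in floxed libraries and 920, 1093 and 944 CPM in ΔIE libraries. The ΔIE libraries were lower on each diet with no overlap, by -0.52 ± 0.10 (adjusted p = 0.025). Defa22 (chromosome 8: 21162277 to 21163249) measured 266 to 328 CPM in floxed chow, 218 to 245 CPM in ΔIE chow, 341 to 528 CPM in floxed HFD and 252 to 286 CPM in ΔIE HFD, at -0.55 ± 0.10 (adjusted p = 0.025). The defensin genes are near copies of each other, so their estimated counts are partly shared reads and are not 5 separate measurements. Mmp7, the protease that activates defensins, gave -0.10 ± 0.08 (adjusted p = 0.5). Without floxed chow 1 and ΔIE chow 3, Lyz1 gave -0.56 and Defa22 -0.59, each with an adjusted p of 0.15.

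**Figure D4:**
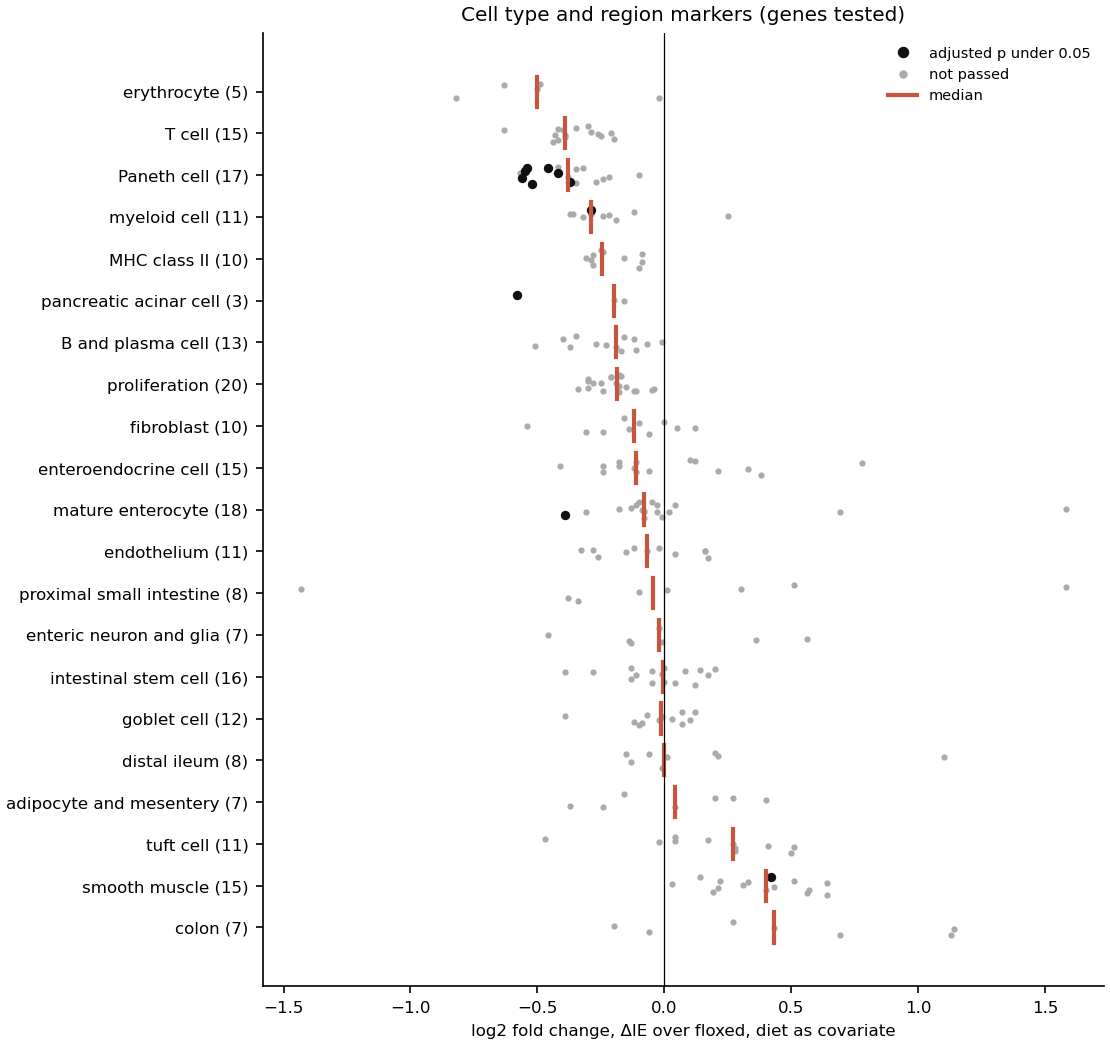
Log2 fold change of ΔIE over floxed with diet as a covariate (x axis) for the tested markers of 21 cell type and region lists (y axis, number tested in brackets); black points passed an adjusted p of 0.05, grey points did not, and red bars are medians. The Paneth cell list holds 7 of the black points, all between -0.56 and -0.37.

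The other cell type lists had at most 1 marker past the test, against 1.44% of all tested genes. Treh, the brush border trehalase, was the 1 of 18 mature enterocyte markers to pass, at -0.39 ± 0.09 (adjusted p = 0.042), and the enterocyte median was -0.08. None of 12 goblet, 15 enteroendocrine, 11 tuft, 16 stem cell or 20 proliferation markers passed. The closest were Tff3 at -0.12 ± 0.08 (adjusted p = 0.42), Sct at -0.24 ± 0.08 (0.11), Trpm5 at 0.51 ± 0.14 (0.075), Smoc2 at -0.28 ± 0.07 (0.058) and Mcm6 at -0.24 ± 0.08 (0.13). Of 11 myeloid markers Csf1r, the receptor that macrophages depend on, was lower at -0.29 ± 0.06 (adjusted p = 0.042). None of 15 T cell or 13 B and plasma cell markers passed, although all 15 and all 13 had negative fitted differences, with medians of -0.39 and -0.19. On HFD alone the B and plasma cell median was 0.03. Ppp1r12b, a regulator of myosin phosphatase, was the 1 of 15 smooth muscle markers to pass, at 0.42 ± 0.09 (adjusted p = 0.035). It gave 0.17 ± 0.09 on chow, where the genotypes overlapped, and 0.67 ± 0.09 on HFD. Its call held in 1 of the 12 fits that left out 1 library. The smooth muscle median was 0.40 overall but -0.21 on chow and 1.15 on HFD. Myh11, the smooth muscle myosin, measured 19.4 to 20.8 CPM in floxed chow, 16.4 to 19.6 CPM in ΔIE chow, 11.5 to 26.5 CPM in floxed HFD and 38.1 to 49.3 CPM in ΔIE HFD. With a smooth muscle score as a covariate 799 genes passed, 228 of them among the 253, and the part of muscle RNA in the lists above was not tested further. Clps, the colipase that pancreatic lipase needs, was lower at -0.58 ± 0.11 (adjusted p = 0.025), and 9 of the 12 pancreatic acinar markers had too few counts to test. Of 8 proximal small intestine markers, none passed, but lactase (Lct) measured 2.01 to 2.75 CPM in floxed chow, 0.453, 102 and 57.6 CPM in ΔIE chow, 76.2 to 256 CPM in floxed HFD and 50.2 to 144 CPM in ΔIE HFD. Among the remaining lists none of 10 fibroblast, 7 enteric neuron and glia, 11 endothelium, 10 MHC class II, 5 erythrocyte, 7 adipocyte, 8 distal ileum or 7 colon markers passed. Their medians ran from -0.50 (erythrocyte) to 0.43 (colon). With a proximal score as a covariate 198 genes passed, 169 of them among the 253.

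The remaining genes with the largest changes had varied roles. Mid1, an X-linked ubiquitin ligase that binds microtubules (chromosome X: 169685199 to 170005736), measured 8.85, 8.95 and 8.58 CPM in floxed chow, 13.8, 24.1 and 20.2 CPM in ΔIE chow, 8.30, 10.3 and 12 CPM in floxed HFD and 27.4, 14.8 and 16.2 CPM in ΔIE HFD. All ΔIE libraries exceeded all floxed libraries, by 1.04 ± 0.17 (adjusted p = 0.025). Its Y-linked pseudogene Mid1-ps1 was also higher, at 2.29 ± 0.45 (adjusted p = 0.036), and the 2 may share reads. Higher at smaller size were Alox5 (0.72), the 5-lipoxygenase of leukotriene synthesis, F2rl2 (0.65), a protease-activated receptor, Crym (0.63), a thyroid hormone binding protein, and Abi3bp (0.59), an extracellular matrix protein. Grik5 (0.58), a kainate receptor subunit, Sned1 (0.54), a matrix protein, and Myom1 (0.54), of the sarcomere M-band, were higher as well. So were the noncoding genes Grin1os (0.70) and Fam120aos (0.61), which lie beside or opposite the genes they are named for. As the strand setting of the counting is not given in the sources used here, their counts may include reads of those neighbours. Lower were Bglap3 (-0.69), of the osteocalcin family, and Cyba (-0.53), the p22phox subunit of NADPH oxidase. Cyba measured 47.7 to 73.7 CPM in floxed and 35.0 to 57.8 CPM in ΔIE libraries. Adjusted p ran from 0.013 (Cyba) to 0.048 (Myom1 and Fam120aos), and none of these passed without floxed chow 1 and ΔIE chow 3.

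3 further lists with no gene past the test were the 19 xenobiotic genes regulated by PXR and CAR, the 19 core clock genes and the 15 heat shock genes. Their medians were 0.05, 0.06 and -0.08. The xenobiotic gene with the smallest p was Cyp2c65, a cytochrome P450, which measured 27.9 to 59.3 CPM in floxed and 18.3 to 25.9 CPM in ΔIE libraries, at -0.76 ± 0.17 (adjusted p = 0.056). Of 15 epithelial antimicrobial genes 1 was lower, against 0.801% of all tested genes. It was Itln1, at -0.37 ± 0.08 (adjusted p = 0.035), while the median of the list was 0.27. Reg3g, an antibacterial lectin and the gene of this list most used as a marker of microbial contact, gave 0.28 ± 0.24 (adjusted p = 0.55).

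The higher and the lower genes differed in kind. Of the 141 lower genes 97.2% were protein-coding, as were 62.5% of the 112 higher genes and 80.7% of all tested genes. The higher set held 32 noncoding transcripts, among them the nuclear RNAs Malat1 (0.48), Neat1 (0.44) and Firre (0.44), and the lower set 1. Malat1 measured 2056 to 2131 CPM in floxed chow, 2913 to 3401 CPM in ΔIE chow, 2400 to 3152 CPM in floxed HFD and 3430 to 4054 CPM in ΔIE HFD. Among protein-coding genes the median exonic length was 6.92 kb in the higher set, 2.63 kb in the lower set and 4.39 kb in all tested. The share of a library's counts in protein-coding genes was 80.4% to 83.1% in floxed chow, 79.8% to 81.2% in ΔIE chow, 80.5% to 81.9% in floxed HFD and 77.2% to 79.4% in ΔIE HFD. The noncoding gene Gm26917 alone took 1.72% to 2.39% of counts in floxed and 2.19% to 3.79% in ΔIE libraries. With the protein-coding share as a covariate 1 gene passed, Mt1, at 2.62 (adjusted p = 0.008). For 4 of the genes that passed every fit with 1 library left out, the fitted differences stayed near their size. Klf6 gave -0.69, Paqr7 -1.06, Klf7 0.54 and Mvk -0.55, with adjusted p from 0.12 to 0.35. Coq4, which also passed those fits, went from -0.63 to -0.49. Other named genes shrank more: Cpt2 from -0.33 to -0.21, Defa22 from -0.55 to -0.34 and Ppp1r12b from 0.42 to 0.24. Mid1 and Abi3bp did not shrink, at 1.08 and 0.60. On HFD the genotypes do not overlap in the protein-coding share, so the 2 cannot be told apart there.

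Promoters of 300 bases were available from RefSeq for 11676 tested genes, and all matches were sought on both strands. The metal response core was found in 41.8% of the 79 promoters of higher genes, 28.8% of the 139 promoters of lower genes and 34.4% of all 14848. Restricted to TGCACNC, which the core includes, the shares were 20.3%, 9.35% and 13.2%. A PPAR response element, written as 2 copies of AGGNCA 1 base apart, was found in 2 of the 79 promoters of higher genes (2.53%), those of Cyp2d9 and Fam193b, in 0 of the 139 of lower genes and in 0.29% of all. The half-site AGGTCA, which the element can include, was in 10.1% of either set and in 13.1% of all. Among them were the promoters of Acadvl, Coq4, Lyz1, Got2 and Treh in the lower set and of Mid1 and S100g in the higher set. These shares describe letters in a short window and carry no test.

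Across the 12060 genes with a mean of at least 1 on the log2 CPM scale, the genotype difference on chow and that on HFD correlated weakly, with a Pearson r of 0.10 and a Spearman rho of 0.36. They had the same sign in 65.5% of genes. The 2 comparisons share no library. Genes are not independent replicates, and these values are descriptions. Fitted on chow alone 54 genes passed, of which 14 were among the 253, and on HFD alone 6 passed, of which 4 were among them. The 6 on HFD were Ppara, Mt1, Paqr7, Gsdmc3, Ppp1r12b and Gm26244.

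**Figure D5:**
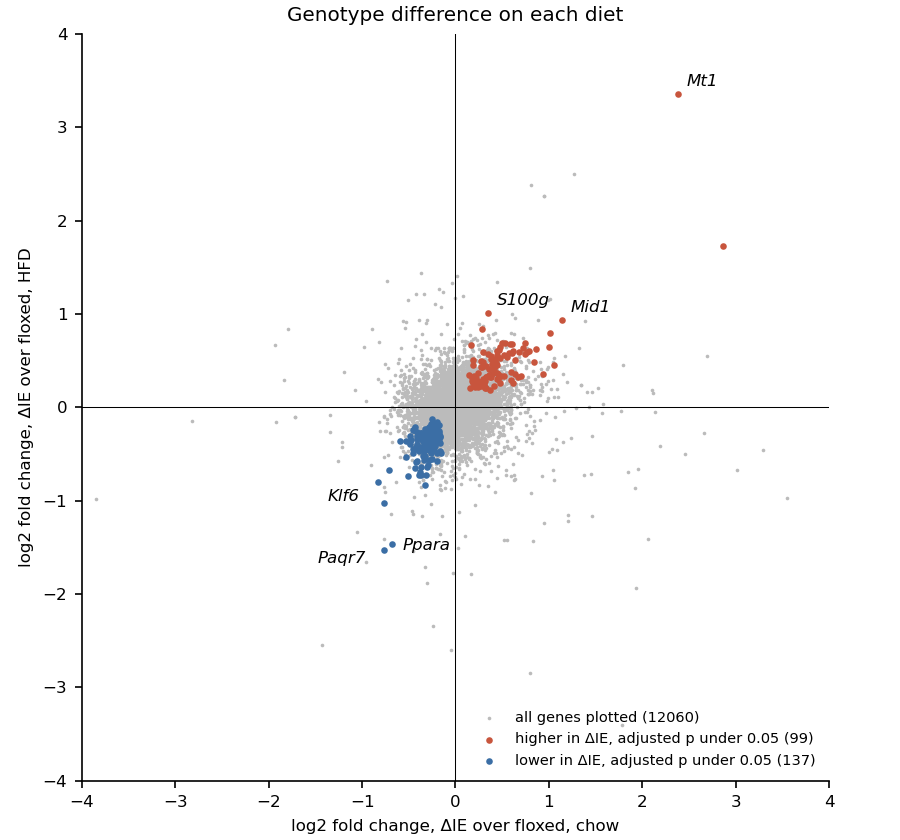
Log2 fold change of ΔIE over floxed on HFD (y axis) against that on chow (x axis) for 12060 genes with a mean of at least 1 on the log2 CPM scale, 7 of which lie outside the axes. Of the 236 called genes plotted, red ones are higher and blue ones lower in ΔIE with diet as a covariate; they lie in the upper right and lower left corners, with Mt1 at 2.38 and 3.35.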

How the data were processed

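The authors deposited 1 table of expected counts, which are unscaled read estimates with fractions, for each gene and library. Per the labels' protocols, total RNA was made into libraries with a stranded total RNA kit. The submitters' processing notes name Trimmomatic, STAR, Picard and RSEM with the build mm10. Their versions, the annotation release and the strand setting of the counting were not given in the sources used here. Reads that fit several near copies of a gene are split among them by RSEM, which makes such families uncertain.

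Counts were rounded and fitted in edgeR 4.0.16 (R 4.3.3) with TMM scaling, its filter on low counts, the additive model of diet and genotype, and the quasi-likelihood test; Benjamini-Hochberg adjustment ran over 17602 genes, with a threshold of 0.05. The SE is the log2 fold change divided by the square root of F. The interaction came from a fit with that term added, and values within a diet from the 4 group means. CPM are counts scaled to a library total of 1000000. Annotation was GENCODE release 21 for mouse, which held 47224 of the 47643 gene IDs.

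The text names Ppara, the 12 largest increases and 12 largest decreases among called genes with a mean log2 CPM of at least 1 and an established symbol, and up to 4 called members of each list. A list without a called gene is given by its smallest p. Other genes were singled out after their values were seen. Members and lists were chosen with earlier results of these data known. List counts and medians are descriptions. The fits were tested on simulated data. Scores are means of centred log2 of CPM plus 0.5 over markers. Alternatives were DESeq2 1.42.0, other scaling and filters, a replicate block, libraries left out, single diets and covariates. Values of 3 named genes are not reported here.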

Additional observations from a re-analysis of the deposited data

Results flagged for a closer look

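The smooth muscle markers moved in opposite directions with genotype on the 2 diets. On chow, every ΔIE library had a lower muscle score than every floxed library, and the median log2 fold change of the 15 markers was -0.21. On HFD, every ΔIE library had a higher score than every floxed library, and the median was 1.15. The score, the mean of centred log2 values over the markers, ran from -0.04 to 0.01 in floxed chow, -0.36 to -0.05 in ΔIE chow, -0.66 to 0.12 in floxed HFD and 0.45 to 0.70 in ΔIE HFD. Desmin (Des), an intermediate filament of muscle, measured 7.97 to 9.41 CPM in floxed chow, 4.66 to 9.06 CPM in ΔIE chow, 3.41 to 8.92 CPM in floxed HFD and 11.4 to 13.8 CPM in ΔIE HFD. The difference between the diets was not tested for the list.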

How the results depend on the processing

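All 42 called genes that the naming rule took kept their direction under every alternative run. The count of 253 became 1034 by DESeq2, 10 to 1119 with 1 library left out, 3 without floxed chow 1 and ΔIE chow 3, 54 on chow alone, 6 on HFD alone, 4 with diet left out of the model and 799 with the muscle score. With 2 alternatives chosen after seeing the data, it was 1 with the protein-coding share as a covariate and 222 over protein-coding genes only. It was 262 with group means, 260 with DESeq2's size factors, 322 without a filter and 198 with the proximal score. With at least 50 counts in 6 libraries it was 359, of which 54.6% were higher, against 44.3%; without a filter 38.2% and with the muscle score 51.8% were higher. The cause was not tested, except that fewer libraries enter the fits that leave some out.

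The Ppara genotype difference ran from -1.21 to -0.98 with 1 library left out. It missed the threshold in 9 of these 12 fits, and also on chow alone (-0.68), without floxed chow 1 and ΔIE chow 3 (-1.18), with diet left out (-1.14) and with the protein-coding share (-1.02). Separation on both diets was seen in 843 to 1517 genes with 1 library left out, since fewer libraries need to separate.

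With the replicate number as a block (replicate block) 376 genes passed, 240 of them among the 253. The labels do not say whether the numbers pair the libraries, and the correlations did not settle it. The 18 same-number pairs correlated at -0.136 to 0.195, with 6 over 0.1, and the 36 different-number pairs at -0.34 to 0.333. Of the 12 libraries, 7 were closest to their own number.

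With both diets fitted, list medians crossed 0 under some setting for the chylomicron, zinc, iron, enterocyte, goblet, enteroendocrine, stem cell, smooth muscle, fibroblast, neuron, endothelium, adipocyte, proximal and distal lists. On a single diet the medians of the omega-oxidation, xenobiotic, Kruppel-like factor, heat shock, B and plasma cell, MHC class II and pancreatic lists also had the other sign. With 3 libraries a group, no change under 0.18 on the log2 scale passed.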

Other observations

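The genes below were singled out after their values were seen. Muc6, a gel-forming mucin, was higher in ΔIE by 1.24 ± 0.21 (adjusted p = 0.018), from 0.456 to 1.39 CPM in floxed to 1.47 to 2.28 CPM in ΔIE libraries. Muc3a, a membrane mucin, was higher by 0.38 ± 0.06 (adjusted p = 0.016). The gelatinase gene Mmp9 was lower by -1.03 ± 0.18 (adjusted p = 0.018), with 1.36 to 2.20 CPM in floxed and 0.422 to 1.63 CPM in ΔIE libraries. Gpx4, which removes lipid peroxides, was lower by -0.32 ± 0.07 (adjusted p = 0.034). It measured 155 to 179 CPM in floxed chow, 145 to 154 CPM in ΔIE chow, 187 to 216 CPM in floxed HFD and 140 to 157 CPM in ΔIE HFD.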
